A study of Mus musculus with 18 samples.

Results

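The interferon response genes examined here were a list of 38 mouse genes that interferons switch on, 30 of them assigned to the type I response and 8 to the interferon gamma response. A gene counted as measured if the array platform's annotation gave a probe set with exactly 1 symbol for it, and the probe set of highest mean stood for the gene. By that rule 35 of the 38 were measured, 28 type I and 7 gamma, out of 22180 genes measured in all. Oas1a shares its probe set with Oas1g and Gbp2 with Gbp2b, so Oas1a and Gbp2 could not be read alone. Ifi44 had no probe set with 1 symbol. Oas1g and Gbp2b, which are outside the member list, each also had a probe set with 1 symbol. The division into 2 classes is a simplification, since many of these genes answer to both kinds of interferon.

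The arrays came from germ-free recipients, mice raised without microbes, of the C57BL/6 genotype. OMT recipients were given gut microbiota of donors about 24 months old. YMT recipients were given that of young donors, whose age is 4 weeks in the protocol and 5 to 6 weeks in the design text. All recipients were 5 to 6 weeks old at transfer and were kept for 8 weeks, and the labels give their age at sampling as 12 or 13 weeks. For small intestine and for liver there were 5 OMT arrays and 4 YMT arrays, each from its own biological replicate within the tissue. The number of donors and cages is not given in the sources used here, so a shared donor or cage cannot be told apart from donor age. Levels below are log2 values as the authors deposited them, listed by replicate number. Differences are OMT minus YMT with their standard error (SE), and p-values come from limma, adjusted by the Benjamini-Hochberg procedure over every gene tested in the tissue, with 0.05 as the threshold.

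Type I interferons are secreted by cells that detect viral or bacterial nucleic acid, and they act on nearly every cell through the IFNAR receptor. The signal assembles a complex with STAT2 and IRF9, which binds the interferon-stimulated response element (ISRE) and induces antiviral genes. Interferon gamma comes mainly from T and NK cells and acts by way of the gamma-activated site (GAS), inducing GTPases that attack intracellular microbes. In the gut and liver, resident microbes are known to set a resting tone of both responses, which differs between germ-free and colonised animals.

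In both tissues most interferon response genes had lower mean levels in OMT recipients. The transcription factor Irf7, the virus tether Bst2 and the ISG15 ligase Herc6 fell in both intestine and liver. In the liver 16 members fell and 1, Stat2, rose, and in the intestine 6 fell. The intestinal calls were the less stable: without each of the 9 intestinal arrays in turn, Herc6 passed the threshold in 6 fits, Irf7 in 3 and Bst2 in 1. Without the filter on low levels, the intestinal adjusted p was 0.0272 for Herc6, 0.0709 for Irf7 and 0.0679 for Bst2. Marker genes matched the labelled tissues, with a hepatocyte marker mean of 11.78 to 11.89 in liver and an enterocyte marker mean of 11.54 to 12.25 in intestine. The median of an array lay between 4.39 and 4.51 for intestine and between 4.12 and 4.22 for liver.

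Promoter sequences of the members were searched for the ISRE and the GAS. The members were listed as genes that interferons switch on, and matches were likely for that reason alone. The shares of matches therefore do not bear on the differences between OMT and YMT. A RefSeq promoter table (build GRCm38.p6) held 26 of the 35 measured members, and the 250 bases before each gene start were read on both strands. The ISRE core was searched as GAAANNGAAA, a direct repeat of GAAA with a spacer of 2 bases, or TTTCNNTTTC on the other strand, and the GAS as TTCNNNGAA, which is its own reverse complement. The 2 motifs can overlap. The ISRE core lay in 13 of the 26 members, against 3.46% of all 27025 genes in the table, a gene counting if any of its promoters held a match. By class it was found in 5 of 6 gamma and 8 of 20 type I members. The GAS lay in 7 of the 26, namely 4 gamma and 3 type I members, against 8.13% of all genes in the table. Both motifs were present in Bst2, Gbp7, Igtp and Irgm2, against 0.40% of all genes in the table. A match describes letters only and does not show that a factor binds. Below are the promoters of the 6 members of smallest p, among those with a match and a sequence to print, each 5′ to 3′ on the gene's strand, with ISRE cores and GAS letters in capitals. Stat2, which is among them by its p, was the member that rose in the liver.
Bst2 (chr8:71537473-71537722, minus strand): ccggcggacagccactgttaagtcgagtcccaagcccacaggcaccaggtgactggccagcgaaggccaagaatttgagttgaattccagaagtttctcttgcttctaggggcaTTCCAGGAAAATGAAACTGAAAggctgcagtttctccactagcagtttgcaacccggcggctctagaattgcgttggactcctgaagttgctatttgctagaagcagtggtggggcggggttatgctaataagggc
Stat2 (chr10:128270248-128270497, plus strand): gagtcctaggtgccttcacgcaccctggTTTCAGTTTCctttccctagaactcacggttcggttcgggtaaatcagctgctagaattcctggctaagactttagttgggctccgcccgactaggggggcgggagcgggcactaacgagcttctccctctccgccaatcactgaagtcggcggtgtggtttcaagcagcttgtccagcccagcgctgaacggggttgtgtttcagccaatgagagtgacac
Ifit1 (chr19:34640639-34640888, plus strand): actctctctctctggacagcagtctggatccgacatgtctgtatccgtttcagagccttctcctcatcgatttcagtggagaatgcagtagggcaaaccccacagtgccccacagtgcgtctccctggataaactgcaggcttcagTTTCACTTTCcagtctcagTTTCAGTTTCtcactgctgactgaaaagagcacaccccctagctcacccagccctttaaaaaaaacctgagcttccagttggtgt
Irgm1 (chr11:48871421-48871670, minus strand): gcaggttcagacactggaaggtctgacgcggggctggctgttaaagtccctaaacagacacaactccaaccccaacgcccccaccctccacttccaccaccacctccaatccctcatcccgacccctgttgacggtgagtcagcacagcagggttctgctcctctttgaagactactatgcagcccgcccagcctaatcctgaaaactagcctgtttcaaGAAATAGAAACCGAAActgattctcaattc
Gbp3 (chr3:142559794-142560043, plus strand): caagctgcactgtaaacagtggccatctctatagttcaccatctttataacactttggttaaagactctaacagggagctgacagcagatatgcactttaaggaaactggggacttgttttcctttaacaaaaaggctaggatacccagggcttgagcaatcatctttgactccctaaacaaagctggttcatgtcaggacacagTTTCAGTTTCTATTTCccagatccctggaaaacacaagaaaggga
Igtp (chr11:58199306-58199555, plus strand): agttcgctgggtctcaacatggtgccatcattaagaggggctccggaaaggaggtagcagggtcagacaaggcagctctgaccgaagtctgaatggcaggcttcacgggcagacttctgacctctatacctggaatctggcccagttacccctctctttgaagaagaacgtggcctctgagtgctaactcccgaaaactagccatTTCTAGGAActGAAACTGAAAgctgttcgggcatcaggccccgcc

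In Bst2 a pair of overlapping ISRE cores lies between 130 and 115 bases upstream, and a GAS that overlaps the first of them between 136 and 128. Irgm1 and Gbp3 also carry overlapping ISRE cores, which end 15 and 30 bases before the gene start. In Ifit1 the ISRE cores stand apart, beginning 104 and 85 bases upstream. Igtp has its GAS from 45 to 37 bases upstream, followed by an ISRE core from 34 to 25. The single ISRE core of Stat2 lies farther out, from 222 to 213 bases upstream.

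**Figure D1:**
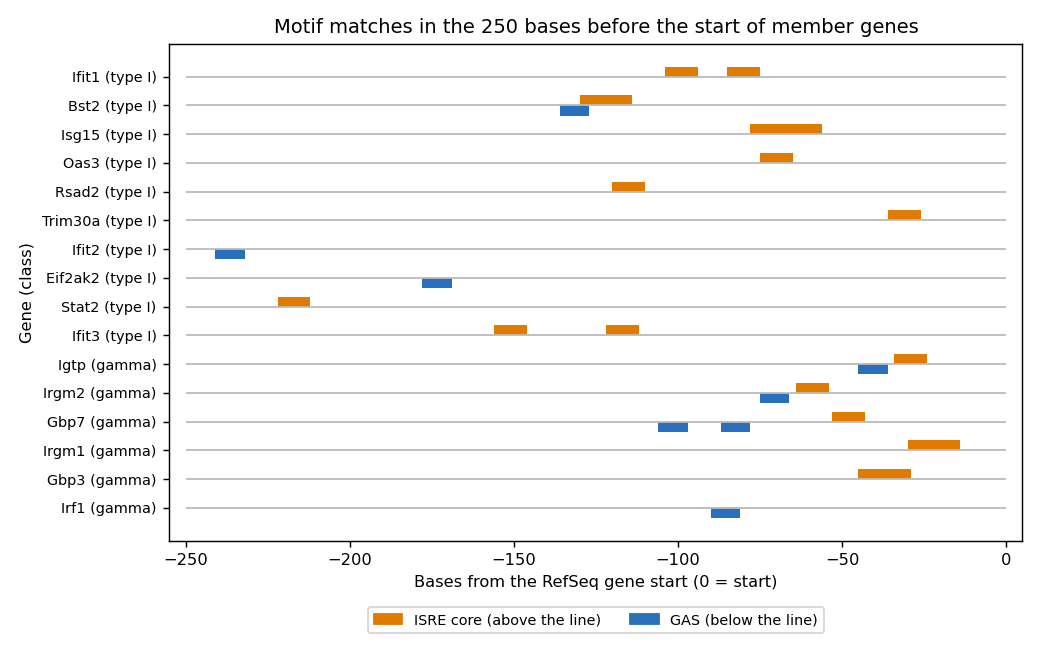
Positions of ISRE core matches (orange, above each line) and GAS matches (blue, below) in the 250 bases before the RefSeq gene start (x axis, in bases) for the members with at least 1 match (y axis). The gamma members' ISRE matches all begin within 64 bases of the start, and that of Stat2 begins 222 bases away.

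In the small intestine the members with the largest falls past the threshold were Herc6 and Zbp1, followed by Bst2, the gamma GTPase Irgm1, Irf7 and the RNA sensor Ddx58. These 6 were the members past the threshold among 32 tested, with none higher. Of all 13238 genes tested in intestine, 3.1% were lower and 1.04% higher at the same threshold. The level filter, which asked for a value above the array median on at least 4 of the 9 arrays, left out Ifit2, Mx1 and Trim30a. It let Mx2 and Gbp3 through although their OMT means lay below the arrays' mean median, so counts over tested members are descriptions. The median difference over the 32 was −0.77, against −0.02 over all genes tested, and 30 of the 32 differences were below 0. Without the filter the median over all 35 was −0.73, 33 differences were below 0, and 2 members were lower and none higher, against 1.05% and 0.352% of all genes. For 5 of the 32 every OMT intestine lay below every YMT intestine and for none above, against 6.84% and 2.8% of all genes tested.

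Among the transcription factors, Irf7, which amplifies type I interferon production, stood at 8.08, 8.51, 8.72, 8.88 and 8.96 in OMT intestines, against 9.02, 9.59, 9.87 and 9.47 in YMT intestines. The groups did not overlap, though OMT replicate 5 and YMT replicate 1 nearly met. Irf7 was thus 1.81-fold lower in OMT, with a difference of −0.86 ± 0.20 (adjusted p = 0.0447). Stat2 and Irf9, partners in the ISRE-binding complex, differed by −0.51 ± 0.28 and −0.16 ± 0.13 (adjusted p = 0.311 and 0.468). In bulk tissue, fewer cells of a type and less RNA per cell cannot be told apart, here and below.

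Of the antiviral effectors, Bst2 (tetherin, which holds budding virus particles on the cell) had levels of 4.80, 5.42, 5.54, 6.29 and 5.76 in OMT intestines, against 6.35, 6.44, 6.94 and 7.04 in YMT intestines. OMT replicate 4 came within reach of the lowest YMT array, and the groups did not overlap. The difference was −1.13 ± 0.27, a 2.19-fold lower level in OMT (adjusted p = 0.043). Ifit1, which binds foreign RNA by its cap, differed by −1.51 ± 0.54 but did not pass the threshold (adjusted p = 0.132). Its OMT levels of 5.76 to 7.63 overlapped the YMT levels of 7.06 to 9.83. Rsad2 (viperin) differed by −0.77 ± 0.27 (adjusted p = 0.124), Mx2 by −0.61 ± 0.24 (0.171), Cmpk2 by −0.05 ± 0.12 (0.83) and Ifit3 by 0.18 ± 0.20 (0.629).

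The ISG15 system, which tags proteins with a ubiquitin-like modifier, held the largest difference of any member. Herc6, the ligase that attaches ISG15 in mice, had levels of 5.54, 5.69, 6.23, 6.51 and 6.81 in OMT intestines, against 7.06, 8.72, 9.12 and 8.65 in YMT intestines. The groups did not overlap, and YMT replicate 1 lay closer to the OMT arrays than to the other YMT arrays. Herc6 was 4.70-fold lower in OMT (−2.23 ± 0.40, adjusted p = 0.0179). Isg15 itself differed by −1.02 ± 0.42 (adjusted p = 0.184) and Usp18, which removes the tag and restrains IFNAR signalling, by −1.20 ± 0.54 (adjusted p = 0.219). Both had overlapping groups.

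The family of the OAS enzymes, which make oligoadenylates to switch on RNase L, and of relatives such as Oasl1 had no member past the threshold among 4 tested. Oasl2 ranged from 6.22 to 8.68 in OMT intestines, against 8.05 to 9.83 in YMT intestines (−1.55 ± 0.52, adjusted p = 0.117). Oas3 differed by −0.85 ± 0.24, Oas2 by −0.72 ± 0.26 and Oasl1 by −0.17 ± 0.30, with adjusted p-values of 0.0715, 0.139 and 0.764.

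Of 5 nucleic acid sensors, 2 fell, where 3.1% of all genes tested were lower. Zbp1, a sensor of Z-form nucleic acid that can start necroptosis, had levels of 6.10, 6.75, 7.29, 7.11 and 7.87 in OMT intestines, against 7.70, 9.24, 9.40 and 9.36 in YMT intestines. YMT replicate 1 lay inside the OMT range, and the other YMT arrays lay well above it. Zbp1 was 3.73-fold lower in OMT (−1.90 ± 0.41, adjusted p = 0.032). Ddx58, which encodes the RNA sensor RIG-I, had levels of 7.19, 7.04, 7.59, 7.49 and 7.19 in OMT intestines, against 7.63, 7.90, 8.34 and 7.90 in YMT intestines. The gap between the groups was narrow, with no overlap, and the difference was −0.64 ± 0.15, or 1.56-fold (adjusted p = 0.0467). Dhx58 (LGP2, a modulator of RIG-I and MDA5) differed by −0.68 ± 0.17 (adjusted p = 0.0568), Eif2ak2 (PKR, which halts translation) by −0.61 ± 0.20 (0.113) and Ifih1 (MDA5) by −0.49 ± 0.19 (0.154). Of the other type I members, Rtp4 differed by −1.04 ± 0.42, Xaf1 by −0.76 ± 0.31, Ifi35 by −0.14 ± 0.15 and Parp14 by 0.02 ± 0.25, with adjusted p-values between 0.178 and 0.967.

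The gamma members were the immunity-related GTPases (IRG family) and guanylate-binding proteins (GBP family), which attack the vacuoles that hold intracellular microbes, and the transcription factor Irf1. Irgm1, a regulator of the other IRG proteins, had levels of 5.52, 5.76, 5.37, 5.78 and 5.92 in OMT intestines, against 6.17, 6.49, 7.04 and 6.72 in YMT intestines. All OMT arrays lay below all YMT arrays, and Irgm1 was 1.91-fold lower in OMT (−0.935 ± 0.17, adjusted p = 0.0191). It was the single gamma member past the threshold among 7, where 3.1% of all genes tested were lower.

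The other GTPases did not pass the threshold, although all but Gbp3 had larger differences than Irgm1, with larger errors. Igtp, a further regulatory IRG protein, had levels of 5.82, 6.82, 7.02, 6.79 and 7.38 in OMT intestines, against 7.06, 8.26, 9.0 and 8.57 in YMT intestines. The groups overlapped by way of OMT replicate 5 and YMT replicate 1, and the difference was −1.46 ± 0.39 (adjusted p = 0.0636). Irgm2, also of the regulatory kind, had levels of 5.79, 7.01, 7.25, 6.83 and 7.49 in OMT intestines, against 7.29, 7.96, 8.61 and 8.36 in YMT intestines. The same 2 arrays overlapped, and the difference was −1.18 ± 0.35 (adjusted p = 0.0828). Iigp1, an effector that loads onto parasite vacuoles, had levels of 4.13, 5.48, 5.08, 4.46 and 5.48 in OMT intestines, against 5.29, 6.05, 6.50 and 6.75 in YMT intestines. YMT replicate 1 again fell within the OMT range, and the difference was −1.22 ± 0.35 (adjusted p = 0.0755).

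Among the guanylate-binding proteins, Gbp7 had levels of 4.84, 6.11, 7.13, 6.34 and 6.87 in OMT intestines, against 6.75, 7.42, 7.76 and 7.72 in YMT intestines. OMT replicate 1 was far below the rest, OMT replicates 3 and 5 exceeded the lowest YMT array, and the difference was −1.15 ± 0.41 (adjusted p = 0.135). Gbp3 had levels of 4.13, 4.57, 4.30, 4.1 and 4.73 in OMT intestines, against 4.66, 4.83, 5.35 and 4.94 in YMT intestines. These levels are near the array medians, the groups overlapped, and the difference was −0.58 ± 0.17 (adjusted p = 0.0762). Irf1 had levels of 8.56, 8.54, 8.47, 8.34 and 8.84 in OMT intestines, against 8.34, 8.68, 8.69 and 8.58 in YMT intestines. It was the one gamma member with wholly intermixed groups, at −0.02 ± 0.11 (adjusted p = 0.925).

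**Figure D2:**
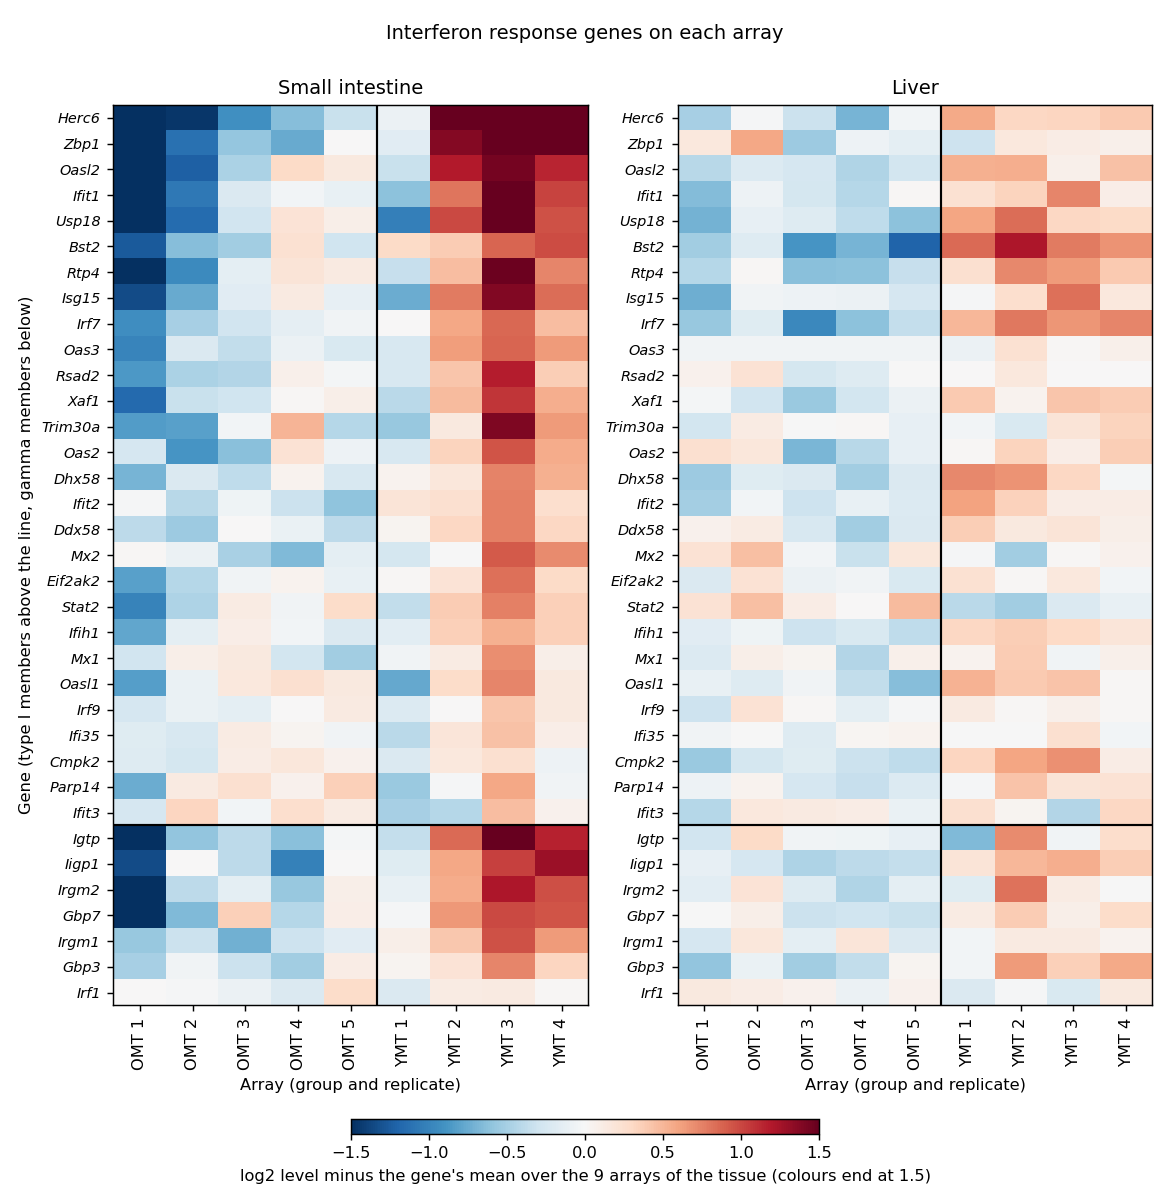
Level of each measured member (y axis, type I above the line and gamma below) on each array (x axis), as the log2 level minus the gene's mean over the 9 arrays of that tissue, from blue (below) to red (above). In intestine the column of OMT replicate 1 is the bluest, the columns of YMT replicates 2 to 4 are red, and YMT replicate 1 is paler or blue for many genes.

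The intestinal members varied together from array to array. YMT replicate 1 was the lowest YMT array for all 32 tested members and YMT replicate 3 the highest for 30. OMT replicate 1 was the lowest OMT array for 24. The count past the threshold rested on few arrays: it was 2, 1 and 2 without OMT replicates 1, 2 and 3, and 2 without YMT replicate 3. It was 0 by limma without YMT replicate 2 or without YMT replicate 4, with 19 and 16 members at an unadjusted p under 0.05, against 24 of 32 with all arrays (22.8% of all genes tested). It was also 0 without both OMT replicates 1 and 2, with 13 at an unadjusted p under 0.05. None of the 6 called members passed the threshold in all 9 single omissions, over which the median difference stayed between −1.0 and −0.55.

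A few markers of immune cells differed in the same direction in intestine. The mean level of 16 T and NK cell markers was 5.61 to 6.04 in OMT intestines, against 5.89 to 6.36 in YMT intestines, with 13 of the 16 on average above the array median in both groups. Of 13 tested, the granzymes Gzmb (−1.43 ± 0.27, adjusted p = 0.0219) and Gzma (−0.96 ± 0.22, adjusted p = 0.0394) fell. Over all genes tested in intestine, 3.1% were lower and 1.04% higher. Klrd1, Prf1 and Tbx21 of the same list differed by 0.21, 0.11 and 0.02, not past the threshold, and the rest of the 13 differed by less than 0. The mean of 8 dendritic cell markers was 4.47 to 4.62 in OMT intestines, against 4.71 to 4.88 in YMT intestines. On average only 2 of the 8 were above the array median in OMT and 4 in YMT intestines. Itgax fell among 4 tested (−0.66 ± 0.14, adjusted p = 0.0296). Xcr1 and Zbtb46, both below the level filter, had higher means in OMT, and the rest of the 8 had lower ones. The mean of 16 macrophage markers was 5.01 to 5.37 in OMT intestines, against 5.20 to 5.45 in YMT intestines, with 1 of 12 tested, Mertk, higher. B cell markers averaged 5.84 to 6.54 in OMT intestines, against 5.99 to 6.75 in YMT intestines, with none of 8 past the threshold. The part of these cells in the members' differences was not tested.

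In the liver the members' falls were led by Bst2, Irf7 and the ISG15 protease Usp18 and spread over every role in the list. Of 32 tested members, 16 were lower in OMT and 1 was higher, whereas of all 13380 genes tested 8.78% were lower and 10.4% higher. The median difference was −0.38, against −0.005 over all genes, and 29 of the 32 differences were below 0. Ifit2, Mx1 and Trim30a were again left out by the level filter, and Gbp3 passed it with an OMT mean below the arrays' mean median. Without the filter the median over all 35 was −0.37, and 15 members were lower and 1 higher, against 4.39% and 5.08% of all genes. All OMT livers lay below all YMT livers for 14 of the 32 members and above them for 1, against 8.51% and 9.64% of all genes tested.

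Of the transcription factors, Irf7 had levels of 5.63, 6.01, 5.23, 5.58 and 5.84 in OMT livers, against 6.69, 6.99, 6.86 and 6.93 in YMT livers. The groups stood well apart, and Irf7 was 2.31-fold lower in OMT (−1.21 ± 0.14, adjusted p = 0.000259). Stat2 went the other way, with levels of 7.90, 8.13, 7.79, 7.68 and 8.16 in OMT livers, against 7.27, 7.16, 7.46 and 7.57 in YMT livers. Every OMT liver exceeded every YMT liver, by little at the nearest pair, and Stat2 was 1.48-fold higher in OMT (0.57 ± 0.12, adjusted p = 0.0084). Irf9 differed by −0.11 ± 0.10 (adjusted p = 0.494).

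Bst2 had levels of 8.45, 8.78, 8.09, 8.28 and 7.77 in OMT livers, against 9.82, 10.19, 9.75 and 9.65 in YMT livers. This was the largest difference of any member in liver, with a clear gap between the groups, at −1.58 ± 0.18 or 2.99-fold lower in OMT (adjusted p = 0.00027). Cmpk2, a mitochondrial nucleotide kinase, had levels of 4.81, 5.10, 5.18, 5.04 and 4.98 in OMT livers, against 5.68, 5.96, 6.05 and 5.47 in YMT livers. The groups did not overlap, and the difference was −0.77 ± 0.12 (adjusted p = 0.00174). Ifit1 also fell, by 0.63 ± 0.16 (adjusted p = 0.0178), with OMT levels of 4.81 to 5.48 below YMT levels of 5.56 to 6.19. Of the remaining effectors, Rsad2 differed by −0.08 ± 0.10, Ifit3 by −0.06 ± 0.17 and Mx2 by 0.21 ± 0.17, with adjusted p-values of 0.608, 0.834 and 0.430.

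Of the 3 members of the ISG15 system, 2 fell in the liver, where 8.78% of all genes tested were lower. Usp18 had levels of 5.52, 6.10, 6.03, 5.85 and 5.61 in OMT livers, against 6.82, 7.06, 6.54 and 6.52 in YMT livers. Herc6 had levels of 6.00, 6.49, 6.18, 5.80 and 6.46 in OMT livers, against 7.07, 6.81, 6.82 and 6.89 in YMT livers. Neither gene's groups overlapped, and the differences were −0.91 ± 0.15 for Usp18 (adjusted p = 0.00191) and −0.71 ± 0.14 for Herc6 (adjusted p = 0.00538). Isg15 differed by −0.55 ± 0.18 with groups that did not overlap, and it did not pass the threshold (adjusted p = 0.0597).

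Oasl2 had levels of 4.46, 4.67, 4.62, 4.42 and 4.59 in OMT livers, against 5.40, 5.42, 4.95 and 5.31 in YMT livers. YMT replicate 3 came closest to the OMT arrays without overlap, and the difference was −0.72 ± 0.10 (adjusted p = 0.000998). Oasl1, a relative that restrains Irf7 translation in mice, fell by 0.61 ± 0.14 (adjusted p = 0.0103). Oas2 differed by −0.37 ± 0.18 (adjusted p = 0.186) and Oas3 by −0.11 ± 0.07 (adjusted p = 0.328).

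Of the sensors, Ifih1 had levels of 7.42, 7.52, 7.27, 7.36 and 7.20 in OMT livers, against 7.89, 7.95, 7.88 and 7.77 in YMT livers. Dhx58 had levels of 4.83, 5.19, 5.16, 4.85 and 5.16 in OMT livers, against 6.10, 6.05, 5.69 and 5.34 in YMT livers. Both had groups without overlap, tight for Ifih1 and wider among the YMT livers for Dhx58. The differences were −0.52 ± 0.08 for Ifih1 (adjusted p = 0.00136) and −0.76 ± 0.16 for Dhx58 (adjusted p = 0.00688). Ddx58 differed by −0.36 ± 0.13 (adjusted p = 0.0753), Eif2ak2 by −0.17 ± 0.10 (0.290) and Zbp1 by −0.02 ± 0.19 (0.962).

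Of the other type I members, Rtp4, a chaperone of membrane receptors, had levels of 6.24, 6.68, 6.04, 6.05 and 6.32 in OMT livers, against 6.91, 7.39, 7.30 and 7.06 in YMT livers. Xaf1, which promotes apoptosis by opposing XIAP, had levels of 4.69, 4.44, 4.17, 4.45 and 4.63 in OMT livers, against 5.11, 4.77, 5.14 and 5.10 in YMT livers. The groups did not overlap for either gene, and the differences were −0.90 ± 0.14 for Rtp4 (adjusted p = 0.00169) and −0.55 ± 0.12 for Xaf1 (adjusted p = 0.00802). Parp14, an ADP-ribosyltransferase, fell by 0.37 ± 0.10 with overlapping groups (adjusted p = 0.0317), and Ifi35 differed by −0.08 ± 0.08 (adjusted p = 0.547).

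Of the gamma members, 3 of 7 fell in the liver, where 8.78% of all genes tested were lower. Iigp1 had levels of 9.60, 9.48, 9.26, 9.33 and 9.37 in OMT livers, against 9.92, 10.22, 10.27 and 10.09 in YMT livers. The groups stood apart, at −0.72 ± 0.10 or 1.64-fold lower in OMT (adjusted p = 0.000575). Gbp3 had levels of 3.82, 4.31, 3.88, 4.04 and 4.45 in OMT livers, against 4.37, 5.05, 4.76 and 4.98 in YMT livers. The groups overlapped at OMT replicate 5, the OMT mean of 4.1 lay below every liver array's median, and the difference was −0.69 ± 0.16 (adjusted p = 0.0143). Gbp7 had levels of 6.77, 6.86, 6.45, 6.47 and 6.44 in OMT livers, against 6.90, 7.15, 6.86 and 7.05 in YMT livers. OMT replicate 2 tied with the lowest YMT array, and the difference was −0.39 ± 0.11 (adjusted p = 0.0296).

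The 3 regulatory IRG proteins did not pass the threshold in the liver. Irgm2 had levels of 7.0, 7.36, 6.97, 6.71 and 7.01 in OMT livers, against 6.98, 7.97, 7.28 and 7.15 in YMT livers. Igtp had levels of 6.62, 7.19, 6.85, 6.84 and 6.78 in OMT livers, against 6.24, 7.61, 6.85 and 7.17 in YMT livers. Both genes' groups overlapped, with the lowest Igtp level in YMT replicate 1 and the highest in YMT replicate 2. The differences were −0.34 ± 0.19 for Irgm2 (adjusted p = 0.249) and −0.11 ± 0.23 for Igtp (adjusted p = 0.778). Irgm1 had levels of 5.71, 6.13, 5.81, 6.14 and 5.74 in OMT livers, against 5.92, 6.09, 6.09 and 6.01 in YMT livers. Irf1 had levels of 6.38, 6.34, 6.30, 6.15 and 6.30 in OMT livers, against 6.02, 6.22, 6.01 and 6.38 in YMT livers. These groups overlapped too, at −0.12 ± 0.11 for Irgm1 (adjusted p = 0.473) and 0.14 ± 0.09 for Irf1 (adjusted p = 0.332).

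**Figure D3:**
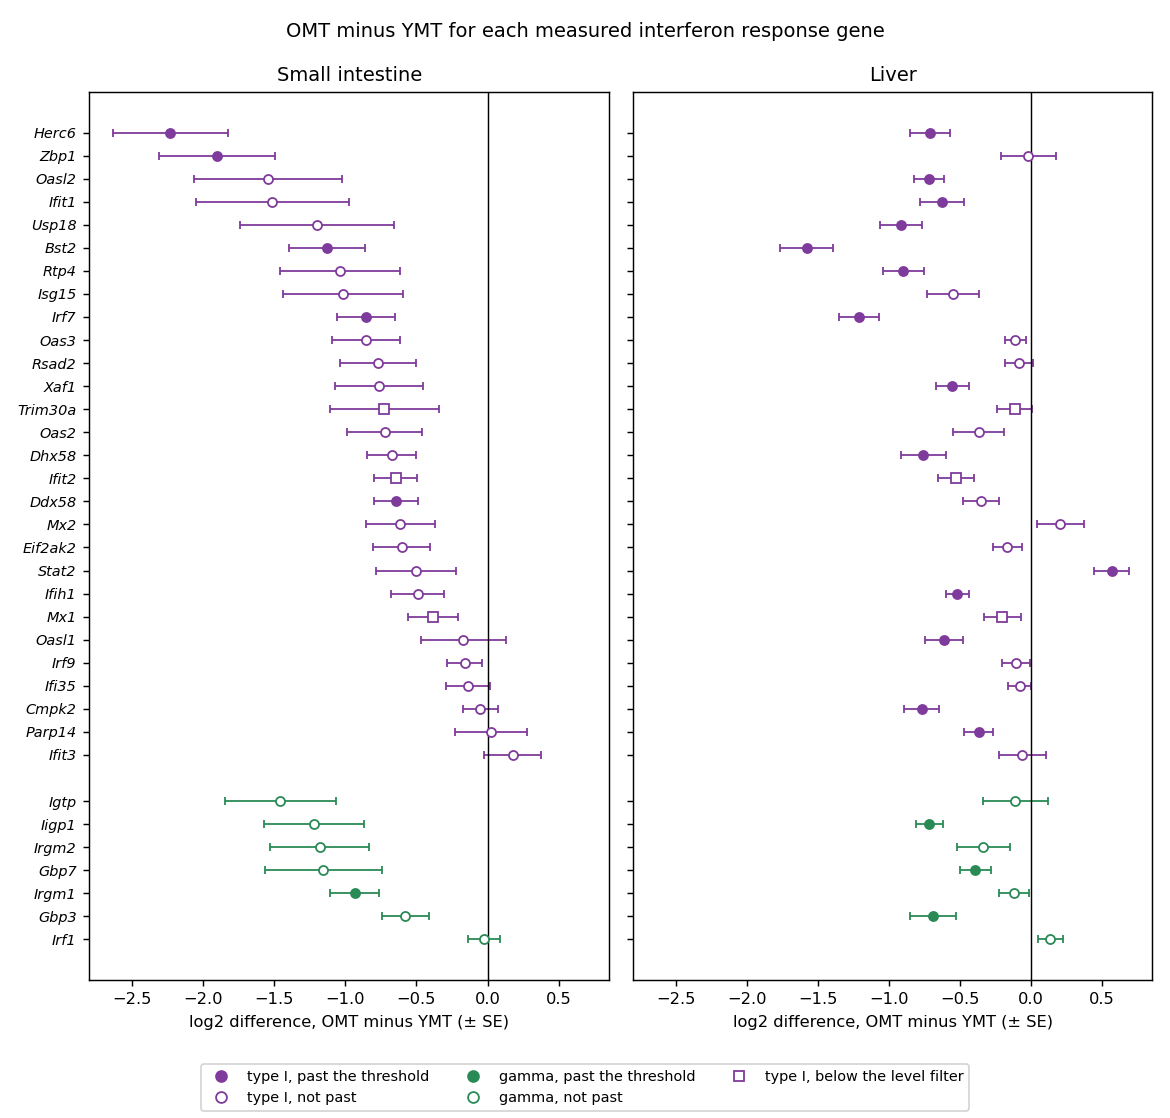
Log2 difference of OMT minus YMT with its SE (x axis) for the 35 measured members (y axis, type I above and gamma below) in intestine and liver; filled points passed the threshold and squares mark members below the level filter. Intestinal differences reach −2.23 with wide error bars, and hepatic ones reach −1.58 with narrow bars and Stat2 alone past the threshold on the right.

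At an unadjusted p under 0.05, 19 of the 32 hepatic members stood out, against 32.4% of all genes tested. Without each array in turn, 13 to 17 members were lower and 1 was higher, and 14 of the 17 called members passed the threshold in all 9 such fits. The exceptions were Parp14, Gbp7 and Gbp3. The 12 endothelial markers averaged 6.07 to 6.26 in OMT livers, against 6.41 to 6.61 in YMT livers. Of the 12, 6 fell, where 8.78% of all genes tested were lower. All 12 were on average above the array median in both groups, and Cdh5, the endothelial cadherin, fell by 0.75 ± 0.10 (adjusted p = 0.000768). Macrophage and Kupffer cell markers averaged 6.35 to 6.61 in OMT livers, against 6.44 to 6.61 in YMT livers. Of 15 tested, Clec4f, Cd5l and C1qc fell, and Marco (1.67 ± 0.19, adjusted p = 0.000241) and Cd163 rose. That is 3 lower and 2 higher of 15, where 8.78% and 10.4% of all genes tested were lower and higher. T and NK cell markers averaged 3.66 to 3.75 in OMT livers, against 3.72 to 3.93 in YMT livers, and none of 6 tested passed the threshold. The part of these cells in the members' differences was not tested.

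The type I and gamma members were set side by side within each tissue. In intestine the median difference was −1.15 over 7 gamma members and −0.72 over 25 type I members tested, and 1 of 7 and 5 of 25 were past the threshold. In liver it was −0.34 over gamma and −0.52 over type I members, and 3 of 7 and 13 of 25 were lower. Of all genes tested, 3.1% were lower in intestine and 8.78% in liver. The class with the lower median thus changed between the tissues, and the difference between the classes was not tested. The mean level of the 28 type I members was 5.97, 6.35, 6.65, 6.84 and 6.76 in OMT intestines, against 6.57, 7.28, 7.84 and 7.39 in YMT intestines. The mean of the 7 gamma members was 5.54, 6.33, 6.37, 6.09 and 6.67 in OMT intestines, against 6.51, 7.10, 7.56 and 7.38 in YMT intestines. OMT replicate 1 was lowest and YMT replicate 3 highest for both classes, and in both the groups overlapped by way of YMT replicate 1.

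In liver the type I mean was 5.47, 5.76, 5.47, 5.43 and 5.53 on the OMT arrays, against 5.96, 6.02, 5.98 and 5.92 on the YMT arrays. The gamma mean was 6.56, 6.81, 6.50, 6.53 and 6.58 in OMT livers, against 6.62, 7.19, 6.87 and 6.98 in YMT livers. The type I groups did not overlap and the YMT livers had an SD of 0.04, whereas the gamma groups overlapped at OMT replicate 2 and YMT replicate 1. OMT replicate 2 was the highest OMT liver for 21 of the 32 tested members.

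**Figure D4:**
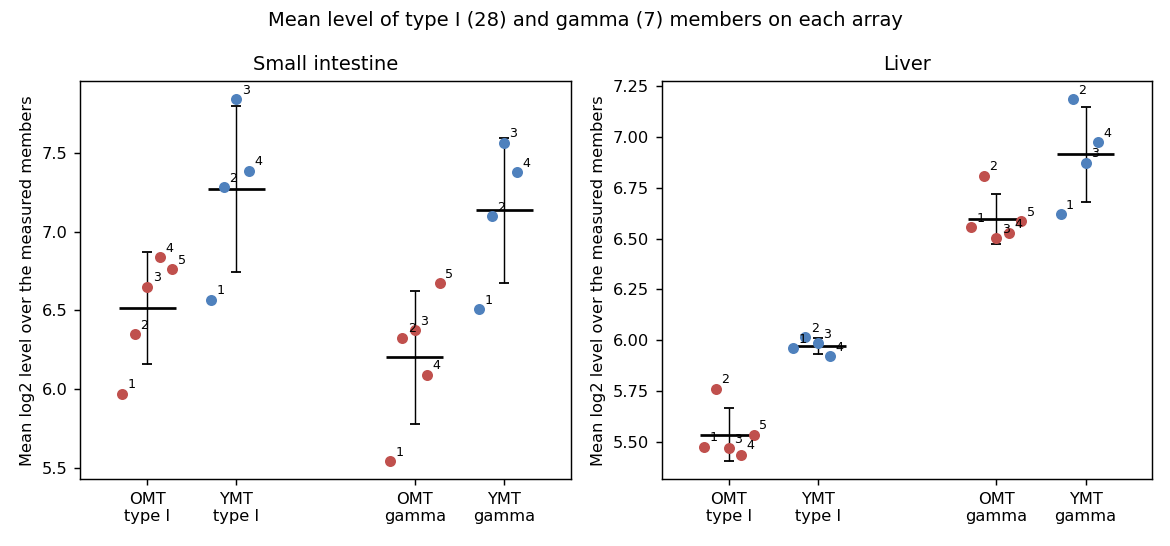
Mean log2 level (y axis) of the 28 type I and the 7 gamma members on each array (points numbered by replicate), for OMT and YMT in intestine and liver; bars are the group mean ± SD over 5 OMT and 4 YMT arrays. Only the type I means in liver separate without overlap, at 5.43 to 5.76 in OMT and 5.92 to 6.02 in YMT.

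The tissues were compared by an interaction term (liver difference minus intestinal difference) fitted to all 18 arrays, on 11959 genes that passed the filter in both. Whether equal replicate numbers in intestine and liver mark the same mouse is not stated. The fit took the 18 arrays as independent, and its p-values rest on that. Of 32 members, 4 had a liver difference above the intestinal one (7.91% of all genes) and 1 a liver difference below it (4.03%). Zbp1 stood at −0.02 in liver and at −1.90 in intestine, an interaction of 1.88 ± 0.47 (adjusted p = 0.0153). Irgm1, at −0.12 in liver and −0.94 in intestine, gave 0.81 ± 0.21 (adjusted p = 0.0172). Herc6 fell in both tissues but by more in intestine, with an interaction of 1.52 ± 0.45 (adjusted p = 0.0328). Stat2, at 0.57 in liver and −0.51 in intestine, gave 1.07 ± 0.32 (adjusted p = 0.0356). Cmpk2 was the opposite case, at −0.77 in liver and −0.05 in intestine, an interaction of −0.72 ± 0.18 (adjusted p = 0.015). At an unadjusted p under 0.05, 9 of the 32 members stood out, which is near the 28% of all genes tested. For the other 27 members no difference between the tissues was detected at this number of arrays. Without both OMT replicates 1 and 2 no member remained on the upper side (0 of 32, with 11 members at an unadjusted p under 0.05 in either direction by limma, against 9 with all arrays). The upper count was 2 without intestine OMT replicate 2, without intestine YMT replicate 2, 3 or 4, and without liver OMT replicate 2 or 5 or liver YMT replicate 2, and 8 without intestine YMT replicate 1.

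The members were compared across tissues by call and sign. Of 32 tested in both, 27 had negative differences in both tissues, 19 were lower in at least 1 tissue and 12 passed the threshold in neither tissue. All 3 shared calls, Irf7, Bst2 and Herc6, made up 3 of 6 intestinal falls and 3 of 16 hepatic falls. The shares of all genes for these counts across tissues were not computed, so the counts describe the members only. Of the members left out by the filter, Ifit2 had every OMT array below every YMT array in both tissues, at −0.65 ± 0.15 in intestine and −0.53 ± 0.12 in liver. All its means were below the array medians, and in the fits without the filter its adjusted p was 0.0679 in intestine and 0.023 in liver.

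Other genes of the pathway were listed by role. The ligands gave little: the interferon genes Ifnb1 and Ifng did not pass the level filter in either tissue. Ifng averaged 4.36 ± 0.12 in OMT and 4.38 ± 0.09 in YMT intestines (SD), and 4.00 ± 0.13 in OMT and 4.13 ± 0.18 in YMT livers. Ifnb1 averaged 2.48 ± 0.28 in OMT and 2.61 ± 0.16 in YMT intestines, and 2.53 ± 0.35 in OMT and 2.70 ± 0.33 in YMT livers. All these groups overlapped, near or below the array medians. Of 8 ligands tested in intestine none passed the threshold. Of 7 in liver 1 fell, Il18, a cytokine that promotes interferon gamma release (−0.84 ± 0.12, adjusted p = 0.000732). Over all genes tested in liver, 8.78% were lower.

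No receptor of 6 passed the threshold in intestine, where Ifnar1 differed by −0.18 ± 0.10, Ifnar2 by 0.02 ± 0.09, Ifngr1 by −0.34 ± 0.14, Ifngr2 by −0.01 ± 0.09 and Ifnlr1 by 0.18 ± 0.10. In liver 1 of 5 tested rose, where 10.4% of all genes tested were higher. This was Ifnar1, a chain of the type I receptor, with a rise of 0.46 ± 0.08 (adjusted p = 0.00239). Ifnar2 differed there by −0.01 ± 0.08, Ifngr1 by 0.03 ± 0.08 and Ifngr2 by −0.20 ± 0.08, none past the threshold, and Ifnlr1 was below the level filter. Of 4 kinases and STATs tested, none passed in intestine. In liver the receptor kinase Jak2 fell by 0.49 ± 0.12 (adjusted p = 0.0152) and Stat3 rose by 0.36 ± 0.11 (adjusted p = 0.0442). That is 1 lower and 1 higher of 4, where 8.78% and 10.4% of all genes tested were lower and higher.

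Of the upstream sensors and adaptors, 2 of 12 fell in intestine, where 3.1% of all genes tested were lower: Tlr3, the endosomal receptor for double-stranded RNA (−0.79 ± 0.15, adjusted p = 0.0244), and Irf8 (−0.57 ± 0.13, adjusted p = 0.036). In liver 3 others of 10 rose, where 10.4% of all genes tested were higher: the RIG-I and MDA5 adaptor Mavs (0.61 ± 0.10, adjusted p = 0.00248), the kinase Tbk1 (0.40 ± 0.09, adjusted p = 0.00802) and the factor Irf3 (0.52 ± 0.08, adjusted p = 0.00127). The median over the list was −0.20 in intestine and 0.09 in liver, and whether the list differed between the tissues was not tested. Of 9 negative regulators, Socs1, an inhibitor of JAK kinases, fell in intestine (−0.58 ± 0.13, adjusted p = 0.0331) and differed by −0.22 ± 0.13 in liver (adjusted p = 0.262). In liver Irf2, which competes with Irf1, fell by 0.67 ± 0.09 (adjusted p = 0.000587), and the phosphatase Ptpn2 rose by 0.36 ± 0.10 (adjusted p = 0.024). These were 1 lower and 1 higher of 9, where 8.78% and 10.4% of all genes tested were lower and higher.

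Among further induced genes outside the member list, none rose past the threshold in either tissue. Of other type I induced genes, 3 of 34 tested fell in intestine (median −0.32) and 12 of 33 in liver (median −0.28), where 3.1% and 8.78% of all genes tested were lower. In intestine these were Pml, the nuclear body protein (−0.945 ± 0.16, adjusted p = 0.0117), Sp110 (−0.89 ± 0.15, adjusted p = 0.0146) and Epsti1 (−0.61 ± 0.10, adjusted p = 0.011). In liver the smallest p-values were those of Ifi27 (−1.41 ± 0.09, adjusted p = 8.92e-06), the entry-blocking membrane protein Ifitm3 (−1.13 ± 0.11, adjusted p = 0.000112) and Parp12 (−0.54 ± 0.07, adjusted p = 0.000495). Among the 12, Trim34a and Ddx60 had OMT means of 3.89, below every liver array's median, so the count over tested genes is a description. Of other gamma induced genes, 5 of 16 fell in intestine (median −0.45) and 3 of 16 in liver (median −0.20), against the same shares of all genes. The tryptophan-degrading enzyme Ido1 averaged 7.77 ± 0.32 in OMT and 9.66 ± 0.26 in YMT intestines, with no overlap, a 3.71-fold lower level in OMT (−1.89 ± 0.17, adjusted p = 0.00214). The T cell chemokine Cxcl9 averaged 5.75 ± 0.30 in OMT and 7.60 ± 0.37 in YMT intestines, and 5.01 ± 0.57 in OMT and 7.20 ± 0.93 in YMT livers. It fell in both tissues without overlap, at −1.85 ± 0.19 in intestine (adjusted p = 0.00273) and −2.18 ± 0.41 in liver (adjusted p = 0.00408). Gbp10 did likewise, at −1.11 ± 0.17 in intestine (adjusted p = 0.00862) and −2.24 ± 0.26 in liver (adjusted p = 0.000254). Gbp2b fell by 1.12 ± 0.18 in liver (adjusted p = 0.00162), but its OMT mean of 4.03 lay below every liver array's median. Transcripts of the GBP, IRG, OAS and IFIT families are alike, so a probe set of one may also detect its relatives.

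**Figure D5:**
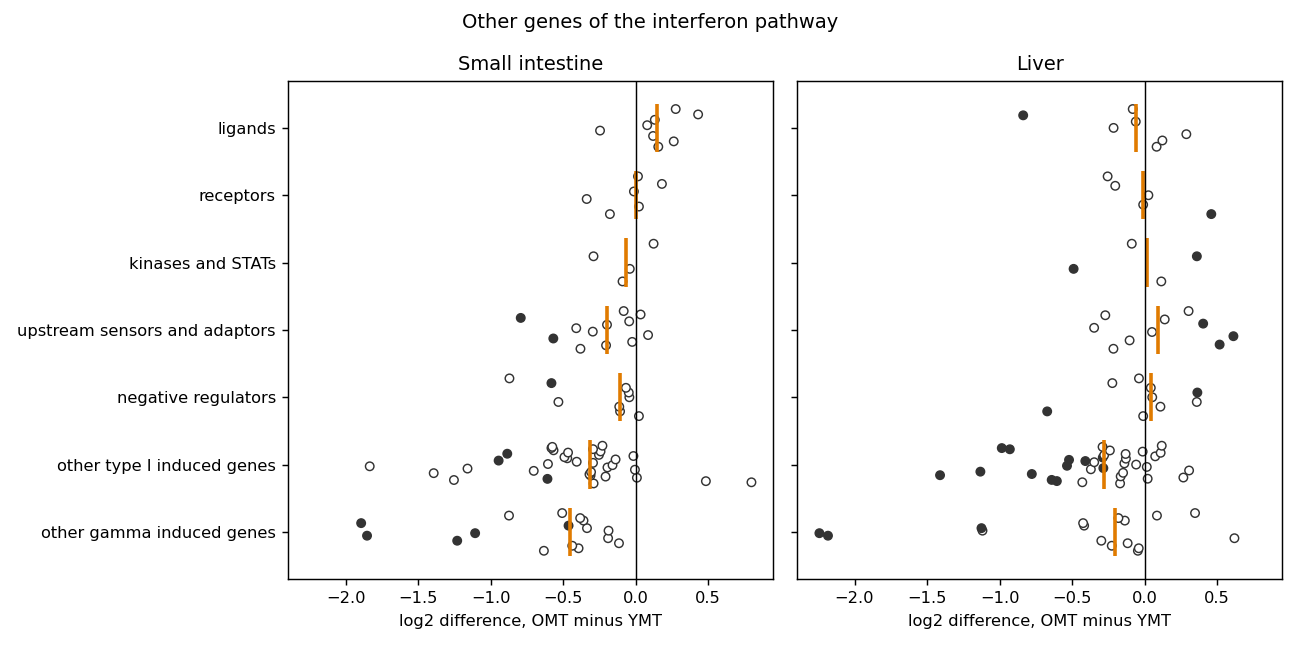
Log2 difference of OMT minus YMT (x axis) for every tested gene of 7 lists of the interferon pathway outside the members (y axis), in intestine and liver; filled points passed the threshold and orange bars are list medians. Filled points of the 2 lists of induced genes lie left of 0 in both tissues, and those of the sensors and adaptors, which are different genes in the tissues, lie left of 0 in intestine and right of 0 in liver.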

How the data were processed

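Transcripts were measured on 18 Affymetrix arrays, hybridised with labelled cDNA from 250 ng of total RNA per the labels' protocols. Per the submitters' processing notes, the authors used RMA in Affymetrix Expression Console to make the deposited log2 values; their versions are not stated. RMA subtracts background, equalises the arrays' quantiles and joins probes into probe sets, and it shrinks differences of dim ones. Base 2 was inferred from the value range, and levels were compared within a tissue because it is not stated whether the tissues were normalized together. Scan dates were not used here. No arrays held identical values.

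Of 41345 probe sets, 23521 had 1 gene symbol, covering 22180 genes, 1814 had several and 16010 are unnamed here. Identifiers of 23328 of the 23521 were found in RefSeq's gene table for GRCm38.p6. A gene was its probe set of highest mean in the tissue (over all arrays for the difference between tissues), and it was tested if it exceeded the array median on at least 4 of 9 arrays. OMT was compared with YMT, grouped by sample title, by limma 3.58.1 in R 4.3.3 (lmFit and eBayes, two-sided, Benjamini-Hochberg adjustment), and the difference between tissues was an interaction term. Since nothing in the labels names separate donors, p-values measure the spread between recipients. The number of arrays limits the precision. Steps were tested on simulated data. Figures were drawn with matplotlib 3.10.9 in Python 3.11.15.

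The members, their classes and the other gene lists were chosen with earlier results of these data known. Per tissue, values in every sample are given for up to 10 type I members of smallest p past the threshold, all tested gamma members and every member that rose. The text also names the members past the threshold between tissues, up to 3 genes of smallest p past the threshold per pathway list, and Ifng, Ifnb1, Socs1 and the interferon receptor genes whatever their p; a further gene of that rule is not reported here. Other members and cell markers are given by counts or in brief. Alternatives were no level filter, a stricter or a mean-based one, trend and robust eBayes, array weights, quantile normalization, centring on array medians, the mean over probe sets, a replicate block, all 18 arrays in 1 fit, each array left out, and OMT replicates 1 and 2 left out. Centring on the median of the genes tested was added after seeing the data.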

Additional observations from a re-analysis of the deposited data

Results flagged for a closer look

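In 9 of 136 sets of replicate values, 1 array stood far from the others by Dixon's criterion, which chance meets in about 1 in 20 sets. In intestine Parp14 was low in OMT replicate 1, at 8.71 with the nearest other OMT array at 9.52. In the same tissue YMT replicate 1 was low for Oasl2, at 8.05 with the next at 9.53, and for Zbp1, at 7.70 with the next at 9.24. That array was the lowest YMT intestine for all 32 tested members, and without it the median difference over the members was −1.0, against −0.77 with all arrays.

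In liver the mean level of the gamma members was high in OMT replicate 2, at 6.81 with the next at 6.58. YMT replicate 2 was low for Mx2, at 4.00 with the next at 4.51, and for Xaf1, at 4.77 with the next at 5.10, and it was high for Rsad2, at 5.14 with the other YMT livers all at 4.99. Zbp1 was low in YMT replicate 1, at 5.64 with the next at 6.03. Ifi35 was high in YMT replicate 3, at 7.35 with the next at 7.10.

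The liver difference minus the intestinal difference passed the threshold for 5 members, by limma's interaction test. It was 1.88 for Zbp1, 1.52 for Herc6, 1.07 for Stat2, 0.81 for Irgm1 and −0.72 for Cmpk2. Zbp1, Irgm1 and Cmpk2 passed the threshold in all 18 fits that left out 1 array, Stat2 in 10 and Herc6 in 8.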

How the results depend on the processing

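No member past the threshold changed sign under any alternative run. In intestine, 6 members were lower; the count was 2 without the level filter, 13 with array weights, 18 with all 18 arrays in the fit and 20 with the replicate block, and it ranged from 0 to 7 over the single arrays left out. Without both OMT replicates 1 and 2 it was 0 by limma, with 13 members at an unadjusted p under 0.05. In liver, 16 were lower; the count was 9 with the stricter filter, which tested 19 members, and 6 with all 18 arrays, and it ranged from 13 to 17 over the arrays left out. The 1 hepatic rise, Stat2, was lost (0) with all 18 arrays and with the replicate block, at adjusted p up to 0.0872; at an unadjusted p under 0.05, 1 member stood higher in each. For the difference between tissues, 4 members were above; the count was 2 without the filter, 7 with array weights and 0 without OMT replicates 1 and 2, and it ranged from 2 to 8 over the arrays left out. The 1 member below, Cmpk2, was not tested under the stricter filter (0). The causes were not tested, except that the stricter filter tests fewer members.

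Scaling changed the split of calls over all genes more than that of the members. In intestine, 410 genes were lower and 138 higher, against 367 and 274 after centring on the median of the genes tested, while 5 to 7 members were lower over the scalings. In liver, 1175 were lower and 1388 higher, against 1492 and 1156 after quantile normalization, while 17 members were lower under each of 3 scalings. For the difference between tissues, 946 genes were above and 482 below, against 642 and 649 after quantile normalization and 626 and 766 after that centring.

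Same-numbered OMT and YMT arrays had correlations of −0.06 to 0.32 in intestine and −0.18 to 0.09 in liver, and 1 of 4 arrays per tissue correlated best with its own number, so the numbers were not taken as pairs. The replicate block gave 20 lower members in intestine and 15 in liver, and OMT replicate 5, which has no partner, does not inform it. For the difference between tissues the block was another, joining intestine and liver arrays of the same group and number (consensus correlation 0.036). That fit gave 4 above and 1 below. Same-numbered intestine and liver arrays had correlations of −0.04 to 0.08 in OMT and 0.01 to 0.15 in YMT recipients. Of these, 1 of 5 OMT and 2 of 4 YMT arrays correlated best with their own number.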

Other observations

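Oas3 had the same deposited level, 5.25, on all 5 OMT livers, whereas the YMT livers gave 5.21, 5.53, 5.32 and 5.38. In the intestine its OMT levels ran between 5.88 and 6.78, so the value repeated in the livers of the OMT recipients alone.

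Among cell markers outside the members, the scavenger receptor Marco and the Kupffer cell lectin Clec4f moved in opposite directions in the liver. Marco averaged 7.38 ± 0.39 in OMT and 5.72 ± 0.23 in YMT livers, and Clec4f 7.21 ± 0.12 in OMT and 7.89 ± 0.15 in YMT livers (SD, 5 and 4 arrays), without overlap for either gene. Both passed the threshold by limma, with adjusted p-values of 0.000241 and 0.000534. In intestine the goblet cell gene Clca1 fell by 0.82 ± 0.16 (adjusted p = 0.0245). It was the 1 that fell of 10 goblet and Paneth cell markers tested, where 3.1% of all genes tested were lower.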
